A study of Mus musculus with 3 samples.

Results

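The interleukin-1 family genes described here encode 3 ligands (Il1a, Il1b and Il18), 4 inhibitors (Il1rn, Il18bp, Il1r2 and Sigirr) and 2 signalling receptor subunits (Il1r1 and Il1rap). They were found by the RefSeq accession that the array gives for each probe, and they are 9 of the 20660 genes with a named probe. They have 10 of the 55681 probes on the array. All 9 genes passed the filter on dim probes (well above background in at least 3 of 6 channel readings) and none was lost. Mouse bone marrow-derived macrophages, per the labels wild type cells of C57BL/6J mice matured in medium conditioned by L929 fibroblasts as a source of CSF-1 and then kept in low serum, were either given adiponectin (a hormone of fat cells) at 12 µg/ml for 18 h or left untreated. Each of 3 arrays set a treated against an untreated RNA sample in opposite dyes, 6 samples and 3 ratios in all, and the labels call the arrays biological replicates. The labels give neither the age nor the sex of the mice, nor the source or purity of the adiponectin, and bone marrow cultures can hold cells other than macrophages. The arrays measure RNA and say nothing of protein or of its release.

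Interleukin-1 alpha and interleukin-1 beta bind the same receptor, IL-1R1, which pairs with the accessory protein IL-1RAP and signals through the adaptor MyD88 and the IRAK kinases to the transcription factor NF-kB. Interleukin-1 beta and interleukin-18 are made as inactive precursors that caspase-1 cleaves. The system is restrained at several levels: Il1rn encodes an antagonist that occupies the receptor, Il1r2 a decoy receptor that lacks a signalling domain, Il18bp a secreted protein that neutralises interleukin-18, and Sigirr a membrane receptor that dampens interleukin-1 and Toll-like receptor signalling.

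RefSeq start-site windows (build GRCm38.p6, 250 bases before to 50 after a start) were given for 8 of the 9 genes, 11 windows in all. Those of the genes with the largest rises are shown because these genes moved together, with the upstream of the 3 windows of Il1rn. Capitals mark each match, on either strand, to TATAAA, to the AP-1 motif TGANTCA, to the PU.1 motif GAGGAA, to the C/EBP motif TTGCNNAA or to the NF-kB consensus. None of these matches overlap.
Il1a (chr2:129309923-129310222, minus strand): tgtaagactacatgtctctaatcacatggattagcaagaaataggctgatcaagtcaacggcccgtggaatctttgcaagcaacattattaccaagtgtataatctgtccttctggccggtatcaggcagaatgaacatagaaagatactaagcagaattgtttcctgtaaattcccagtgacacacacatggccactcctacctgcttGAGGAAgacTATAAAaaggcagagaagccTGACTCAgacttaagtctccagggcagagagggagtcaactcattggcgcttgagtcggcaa
Il1b (chr2:129371090-129371389, minus strand): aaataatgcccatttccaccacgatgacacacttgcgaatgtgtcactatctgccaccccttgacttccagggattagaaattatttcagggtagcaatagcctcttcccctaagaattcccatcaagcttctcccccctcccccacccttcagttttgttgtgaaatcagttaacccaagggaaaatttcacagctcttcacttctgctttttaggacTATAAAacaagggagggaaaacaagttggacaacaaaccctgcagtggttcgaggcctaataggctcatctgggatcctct
Il1rn (chr2:24336610-24336909, plus strand): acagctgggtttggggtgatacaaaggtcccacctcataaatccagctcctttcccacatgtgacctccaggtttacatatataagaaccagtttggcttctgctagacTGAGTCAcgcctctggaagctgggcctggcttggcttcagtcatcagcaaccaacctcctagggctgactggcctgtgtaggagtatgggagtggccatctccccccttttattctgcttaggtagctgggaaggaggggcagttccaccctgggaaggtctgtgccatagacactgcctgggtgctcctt
In the windows of Il1a and Il1b, TATAAA began 32 and 31 bases before the start on the strand of the gene. The search covered 32851 mouse windows, but not those of every chromosome. Of the windows searched, 2.31% hold TATAAA on that strand within the 40 bases before the start (a span chosen after these matches were seen), and 13.6% hold it anywhere on either strand. The Il1a window also held GAGGAA and TGACTCA (41 and 12 bases before the start), and the Il1rn window shown held TGAGTCA 141 bases before its start. The other windows of Il1rn held no match to TGANTCA. The most downstream of them matched only TATAAA, on the opposite strand and beginning 14 bases after its start. Which of these starts the measured Il1rn RNA came from was not tested. TGANTCA occurs in 7.81% of the windows searched and GAGGAA in 28.3%. The NF-kB consensus (4.51% of the windows searched) was not matched in the 3 sequences shown. It matched in 1 of the other windows, that of the downstream start of Il1r1. TTGCNNAA (10.8%) matched in the windows of Il18bp and of the upstream start of Il1r1.

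Adiponectin-treated macrophages had much more Il1a, Il1b and Il1rn RNA than untreated ones and less Sigirr RNA, while the other 5 genes differed by less than 1.5-fold. Of the 9 genes, 6 were called higher and 2 lower in limma (Benjamini-Hochberg adjusted p under 0.05 over all 13180 genes tested). Of all genes tested, 24.5% were called higher and 46.1% lower, which makes 70.6% in either direction, so a call alone sets few genes apart. By size, 3 of the 9 genes were called and at least 2-fold higher, against 6.8% of all genes tested, and 1 was called and at least 2-fold lower, against 12.6%. The median ratio of the 9 genes was 0.31 on the log2 scale, and that of all genes tested was -0.17. Levels below are log2 intensities of each channel, rebuilt from the normalised mean intensity of the 2 channels and their ratio. The gap between the 2 levels of an array is thus the ratio itself and no separate evidence. Ratios are log2 treated over untreated, each with limma's moderated standard error (SE), in which each gene borrows information on its spread from all genes. With dye as a term in limma, a dye effect was called for none of the 9 genes and for 44 of all genes tested. Only replicate 2 had the treated RNA in Cy5, so this term cannot be told apart from a difference of that replicate. In bulk RNA, fewer cells of a type and less RNA per cell cannot be told apart.

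**Figure D1:**
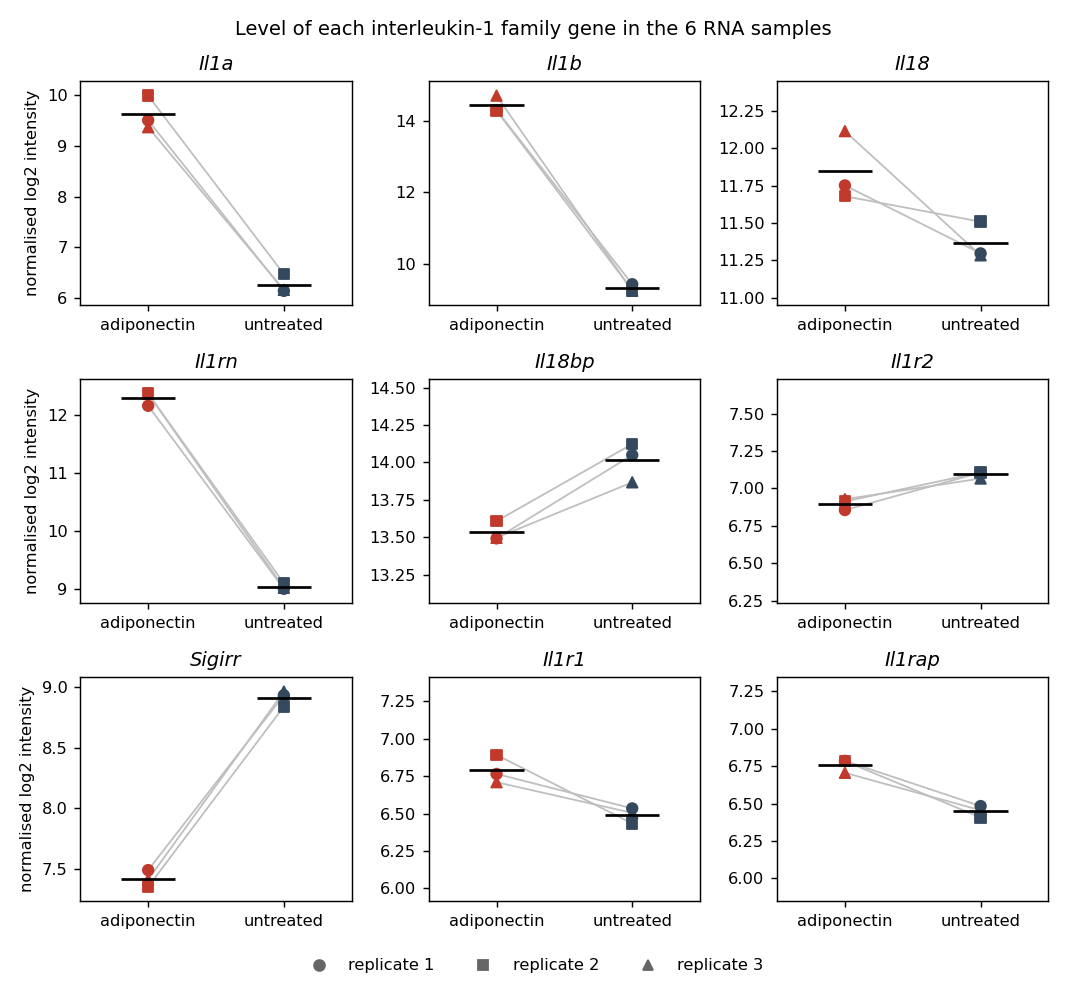
Normalised log2 intensity (vertical axis, a separate range for each gene) of the 9 genes in adiponectin-treated (left) and untreated (right) macrophages; each symbol is 1 RNA sample, grey lines join the samples of an array and black bars are means of 3 samples. Treated and untreated samples do not overlap for any gene, not even for Il1r2, which was not called, so this alone sets none apart. The share of all genes tested without overlap was not counted. The gap between means is 5.14 for Il1b and 0.19 for Il1r2.

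Among the ligands, Il1b stood highest. Its level was 14.31, 14.30 and 14.72 in treated macrophages of replicates 1, 2 and 3, against 9.42, 9.25 and 9.24 in untreated macrophages. Every treated sample lay far above every untreated sample. The ratio was 5.14 ± 0.118 (SE, n = 3 arrays; limma adjusted p = 3.18e-08), a 35.3-fold difference, and only 4 of the 13180 genes tested had a higher ratio. The ratios were 4.89, 5.04 and 5.48, with an SD of 0.31. With median centring in place of loess, Il1b was at 3.98 and not called (limma adjusted p = 0.0741). The array holds 10 spots of the Il1b probe, of which 9, 10 and 10 were usable on replicates 1, 2 and 3. Their ratios ran from 4.79 to 5.02 on replicate 1, from 4.76 to 5.16 on replicate 2 and from 5.32 to 5.61 on replicate 3. The spread between spots of an array (mean SD 0.101) was thus smaller than that between arrays, and every spot of replicate 3 lay above all spots of the other arrays.

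**Figure D2:**
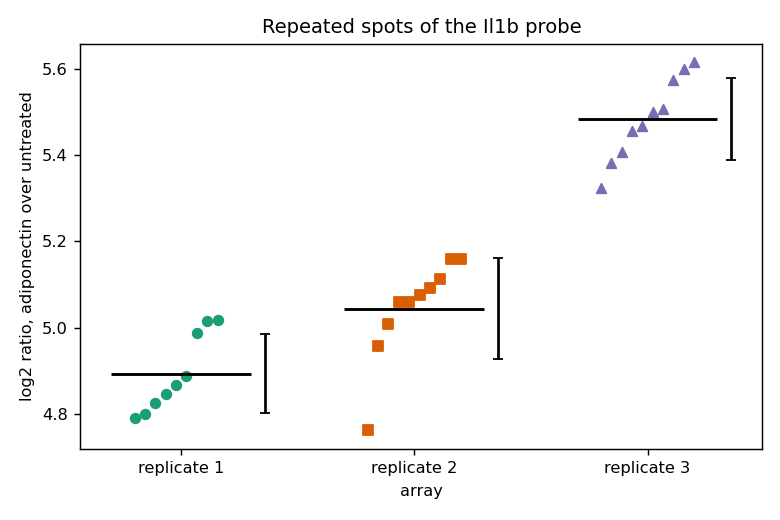
Log2 ratio of adiponectin-treated over untreated macrophages (vertical axis) at each usable spot of the Il1b probe on the 3 arrays, sorted within an array; long bars are array means and error bars are SD between spots. Replicates 1 and 2 overlap, and the lowest spot of replicate 3 (5.32) is above the highest of replicate 2 (5.16).

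Il1a, which encodes the ligand that is active without cleavage by caspase-1, was at 9.50, 9.99 and 9.37 in treated macrophages, against 6.14, 6.47 and 6.16 in untreated macrophages. The untreated samples were dim. The ratio was 3.36 ± 0.0906 (limma adjusted p = 4.24e-08), or 10.3-fold. Treated spots were 15.9 to 20.9 times as bright as their local background, and untreated spots 2.05 to 2.65 times, so the ratio depended on how background was handled. A normexp offset of 0 gave 4.60, and the log ratio of the scanner software was 5.26. Il1b, whose untreated spots were 20.7 to 24.6 times as bright as background, was at 5.33 and 5.29 under the same settings. The ratio of Il1b thus exceeded that of Il1a by 1.53, 1.53 and 2.28 on the 3 arrays, but the scanner software's values for the 2 genes were almost equal. Under median centring in place of loess, Il1a was at 2.58 and not called (limma adjusted p = 0.0741).

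Il18, the interferon gamma-inducing ligand, differed little. Its level was 11.75, 11.68 and 12.11 in treated macrophages, against 11.30, 11.51 and 11.28 in untreated macrophages. The ratio varied more than that of any other gene of the 9, at 0.45, 0.17 and 0.83. It was 0.48 ± 0.123 (limma adjusted p = 0.00707), or 1.40-fold. Without replicate 3 it was 0.31 and no longer called (limma adjusted p = 0.0502), and when arrays were median-centred rather than loess-normalised its sign turned, at -0.68 (limma adjusted p = 0.313).

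Of the inhibitors, the antagonist gene Il1rn rose with the ligands. Its level was 12.16, 12.37 and 12.37 in treated macrophages, against 9.01, 9.10 and 9.02 in untreated macrophages. Both groups were tight, with an SD of 0.12 in treated and 0.051 in untreated samples. The ratio was 3.26 ± 0.0837 (limma adjusted p = 3.85e-08), or 9.55-fold, so 64 genes had a higher one. Il1rn was 0.21 and 0.25 below Il1a on replicates 1 and 2 and 0.14 above it on replicate 3, a difference smaller than its own spread (mean -0.10, SD 0.21). That likeness holds for the background step used here: with a normexp offset of 0 Il1rn was at 3.51, against 4.60 for Il1a, and the scanner software gave 3.47 for Il1rn, against 5.26 for Il1a. Its ratio was below that of Il1b by 1.74, 1.78 and 2.14 on the 3 arrays. With 3 arrays an exact two-sided permutation test of such a difference cannot give a p below 0.25. When arrays were median-centred rather than loess-normalised, Il1rn was at 2.08 and not called (limma adjusted p = 0.0768).

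Sigirr, the inhibitory receptor gene, was the member that fell most. It was at 7.49, 7.35 and 7.41 in treated macrophages, against 8.93, 8.84 and 8.96 in untreated macrophages. The 3 ratios (-1.44, -1.49 and -1.55) had the smallest SD of the 9 genes, 0.055. The ratio was -1.49 ± 0.0806 (limma adjusted p = 1.04e-06), which is 2.82-fold lower. Of all genes tested, 4.18% had a lower ratio. Treated Sigirr spots were only 2.56 to 3.17 times as bright as their local background, against 15.0 to 17.4 times for untreated spots. The ratio moved with the background step, to -1.90 with a normexp offset of 0 and to -2.05 for the scanner software's log ratio. Median centring in place of loess gave -2.39, which was not called (limma adjusted p = 0.0741).

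Il18bp, the gene of the interleukin-18 binding protein, also fell, by much less. It was at 13.49, 13.61 and 13.50 in treated macrophages, against 14.05, 14.12 and 13.87 in untreated macrophages. The ratio was -0.48 ± 0.0839 (limma adjusted p = 9.09e-04), or 1.40-fold lower, and -0.31 relative to the median of all genes tested. On each array the ratio of Il18bp was below the ratio of Il18, by 1.01, 0.69 and 1.20. The decoy receptor gene Il1r2 was dim, at 6.86, 6.91 and 6.93 in treated macrophages, against 7.11, 7.11 and 7.07 in untreated macrophages. Its ratio of -0.19 ± 0.0807 did not pass (limma adjusted p = 0.0581; 95% interval -0.38 to -0.01 without adjustment), and it was -0.03 relative to the median of all genes tested. The call of Il1r2 hung on the setting: over the alternatives tried, its limma adjusted p ran from 0.0364 to 1 and it passed in 6 of 15.

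The receptor genes Il1r1 and Il1rap were slightly higher in treated macrophages, close to the background of the array. Il1r1, the signalling receptor of both interleukin-1 ligands, was at 6.76, 6.89 and 6.71 in treated macrophages, against 6.53, 6.43 and 6.50 in untreated macrophages. Its ratio was 0.30 ± 0.0885 (limma adjusted p = 0.0151), or 1.23-fold. Il1rap, the accessory subunit, was at 6.79, 6.78 and 6.71 in treated macrophages, against 6.48, 6.41 and 6.46 in untreated macrophages. Its ratio was 0.31 ± 0.0811 (limma adjusted p = 0.00828), or 1.24-fold. Raw spots of both were only 1.80 to 2.45 times as bright as background in treated samples and 1.84 to 2.23 times in untreated samples. Their ratios accordingly moved with the background step, to 0.69 and 0.73 (Il1r1 and Il1rap, offset 0 in normexp) and to 1.21 and 1.01 (the log ratio of the scanner software). With median centring they were at 0.07 and 0.09 and not called (Il1r1 and Il1rap, limma adjusted p = 0.903 and 0.862). Il1r1 was at 0.22 without replicate 2 (limma adjusted p = 0.0544), and Il1rap was at 0.31 without replicate 1 (limma adjusted p = 0.0501). A second probe of Il1rap, designed on another RefSeq transcript, was well above background in 0 of 6 channel readings, so the values rest on 1 probe of this gene.

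**Figure D3:**
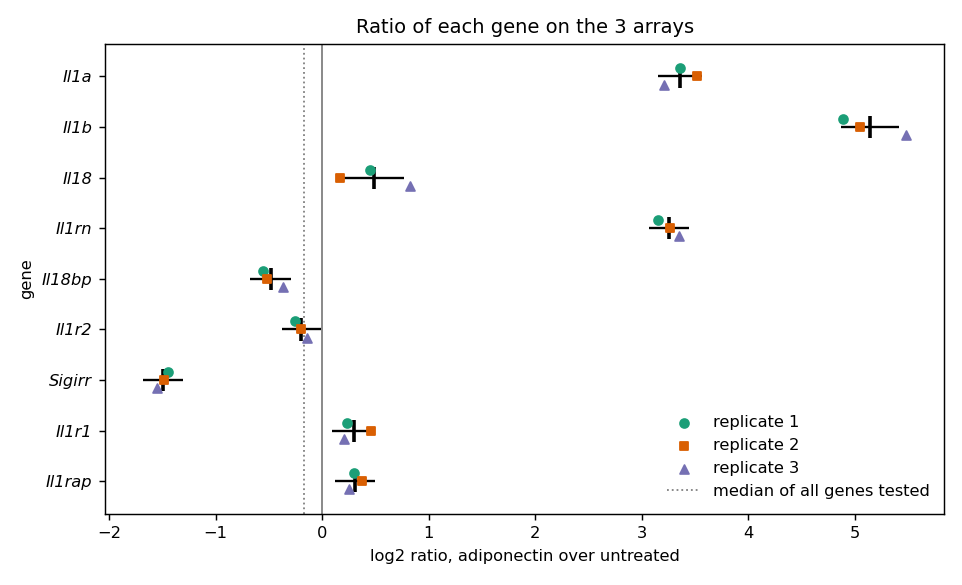
Log2 ratio of adiponectin-treated over untreated macrophages (horizontal axis) for the 9 genes; symbols are the 3 arrays, the vertical tick is the mean and the line its 95% interval from limma. Il1b, Il1a and Il1rn lie above 3, Sigirr lies near -1.5, and the other 5 genes lie between -0.6 and 0.9 on every array.

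**Figure D4:**
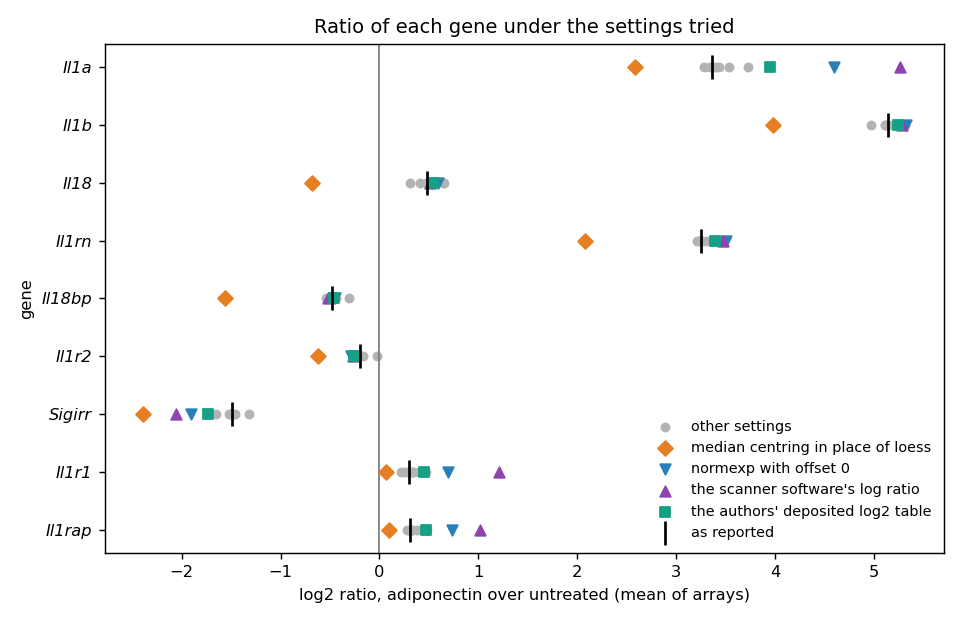
Log2 ratio of each gene (horizontal axis) as reported and under each of 15 other settings. Il1b, Il1a, Il1rn and Sigirr keep their sign throughout, and Il18 turns negative with median centring (-0.68). Il1a, Il1r1, Il1rap and Sigirr, each dim in treated or untreated samples or both, move outward with other background steps.

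The family has further genes outside these 9. Of 6 other ligand and 6 other receptor genes with a named probe, 8 were not well above background in any reading, among them Il33, Il18r1 (the binding chain of the interleukin-18 receptor) and Il1rl2 (the interleukin-36 receptor). The other 4 passed the filter through the treated or the untreated readings alone, so the direction each takes follows from the filter and their counts say nothing of the family. The limma adjusted p-values given for these 4 are no separate support for their directions. Il1f6, also called Il36a, was at 7.39, 8.37 and 7.78 in treated macrophages and not well above background in untreated macrophages on any array. Its treated level was 3.91-fold the untreated one, an estimate and not a lower bound (limma adjusted p of the ratio = 6.80e-07). For this estimate, dimmer untreated readings were raised to the dimmest untreated signal of any probe well above background on that array. Il1f9, also called Il36g, was likewise well above background only in treated macrophages, at 7.16, 7.45 and 6.89. The same estimate for Il1f9 was 2.41-fold, again not a lower bound (limma adjusted p of the ratio = 5.54e-06). Il1rl1, the interleukin-33 receptor, was not well above background in treated macrophages on any array. It averaged 7.21 ± 0.19 in untreated macrophages (SD, n = 3). It was 2.02-fold lower in treated macrophages as normalised here (limma adjusted p = 1.85e-05), which is an estimate and not a lower bound. Its ratio was -1.01, but -0.84 after centring every array on the median of tested genes and -0.92 without replicate 1. It has 2 further probes that were well above background in 0 of 6 readings. Il18rap, the signalling chain of the interleukin-18 receptor, was 1.27-fold lower (limma adjusted p = 0.00446), likewise an estimate and not a lower bound. With that centring Il18rap was at -0.18 and not called (limma adjusted p = 0.0853).

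Genes that carry the signal from the receptor were called in both directions, as were all genes. Of 19 measured, 8 rose and 7 fell, with a median of -0.07, against 24.5% higher, 46.1% lower and a median of -0.17 among all genes tested. Peli2, a ubiquitin ligase that acts on IRAK proteins, had a ratio of -1.77 ± 0.131. Nfkbiz, an interleukin-1-induced nuclear IkB protein, was at 1.26 ± 0.0860, the inhibitory kinase homologue Irak3 at 1.16 ± 0.113 and the kinase Irak2 at 1.14 ± 0.0955 (1.57 with its other probe). Traf6 (-0.07), Tab2 (-0.18), Tab3 (-0.17) and Ikbkg (0.24) were not called. The adaptor Myd88 was at -0.72 ± 0.0804. After median centring rather than loess, Irak3 was at -0.01.

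Genes that process or release the ligands were called about as often as all genes. Of 15 measured, 4 were called higher and 7 lower, with a median of -0.18, against 24.5% and 46.1% of all genes tested. With the mean over a gene's probes in place of the brightest probe, 5 were called lower, and P2rx7 and Nlrp3 were not. Mefv, the gene of pyrin, was at 1.51 ± 0.0924, and Ninj1, which acts in membrane rupture, at 1.12 ± 0.0819. Capn2, a subunit of the protease calpain, was at -1.39 ± 0.0855. The ATP receptor gene P2rx7 was at -1.52 ± 0.107 with its brightest probe, but its other probes gave 0.06 and 0.95, so no direction can be given for this gene, although the count of 7 includes it. Casp1, which encodes the enzyme that cleaves interleukin-1 beta, and Nlrp3, its inflammasome sensor, were picked for their role after their values were seen, as was Myd88. They were at 0.36 ± 0.0794 (limma adjusted p = 0.00320; -0.71 with median centring) and -0.26 ± 0.0887 (limma adjusted p = 0.0271; -0.08 with its other probe). The call of Nlrp3 was lost without replicate 1 (-0.24, limma adjusted p = 0.143), without replicate 3 (-0.21, 0.151), with the mean over its probes (-0.17, 0.0747) and after centring on the tested genes (-0.09, 0.365). Casp4 (0.18), Gsdmd (0.18), Panx1 (0.18) and Pycard (-0.18) were not called.

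Of 11 measured regulators of the transcription and decay of these RNAs, 8 rose and 1 fell, with a median of 1.00, against 24.5% higher and 46.1% lower of all genes tested. These regulators were picked with earlier results of these data known, so the contrast with all genes is only a description. After median centring rather than loess, limma called 0 of them in either direction (0 also at an unadjusted p under 0.05), and the sign turned for Relb (-0.14), Spi1 (-0.39) and Irf8 (-0.79). Cebpb, a transcription factor of the Il1b gene, was at 2.64 ± 0.0908, and Zfp36, which binds and destabilises cytokine RNAs, at 2.41 ± 0.0796. The hypoxia factor gene Hif1a was at 2.34 ± 0.0880 and the NF-kB subunit gene Nfkb2 at 2.02 ± 0.0921. The NF-kB subunits Rela (0.05) and Nfkb1 (0.29, and -0.04 with its other probe) were not called, and Rel was well above background in 2 of 6 readings and was not tested. The member that fell was Irf4 (-0.43 ± 0.0921), which was dim.

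**Figure D5:**
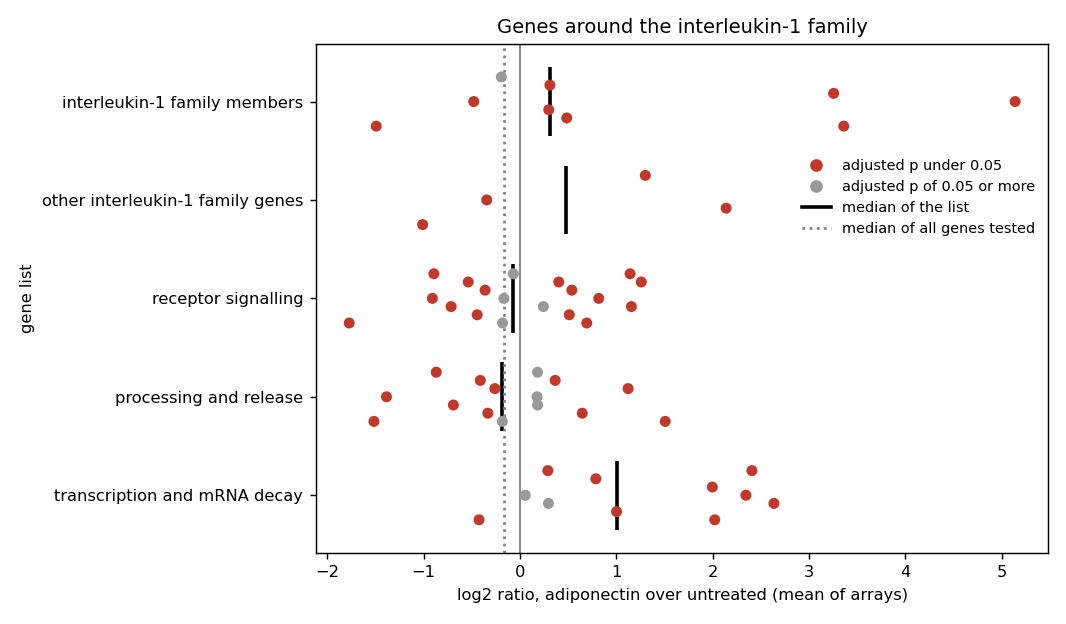
Log2 ratio of adiponectin-treated over untreated macrophages (horizontal axis, mean of 3 arrays) for the measured genes of 5 lists; points are genes, coloured by the limma adjusted p, spread vertically for legibility, and bars are list medians. The signalling (-0.07) and processing (-0.18) lists lie around the median of all genes tested (-0.17), and the regulators of transcription and decay lie above it (1.00). All lists were picked with earlier results of these data known.

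Across the 13180 genes, likeness was measured as the root mean square difference between the ratios of 2 genes over the 3 arrays, which 3 points describe only loosely. Nearest to Il1b were Tnfsf9 (0.19), Dusp2 (0.20), U90926 (0.21) and Saa2 (0.24). The ratio of Saa2 ran from 4.09 to 8.47 over the other settings, against 3.98 to 5.33 for Il1b, so its nearness depends on the setting. Nearest to Il1rn were Pfkfb3 (0.010), Ccl3 (0.084) and Mki67 (0.091). Nearest to Sigirr were Parp12 (0.021), Map4k1 (0.031), Ywhah (0.035) and Tsr1 (0.039).

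Between 43.9% and 47.5% of probes were well above background in treated channels, and between 53.4% and 54.3% in untreated channels. Ratios of all genes tested correlated at r = 0.943 to 0.968 between arrays, where genes are not independent replicates. Of 8 macrophage markers, 7 were measured (Cd68 matched no probe by accession), and all 7 were well above background in every sample. Of these, 6 were lower in treated macrophages and Spi1 was higher, and their summed linear level was 84634 to 142606 in treated and 280199 to 302316 in untreated samples. Csf1r weighed most in that sum, with a mean log2 level of 15.44 in treated and 17.23 in untreated samples. Of 9 neutrophil markers, whose cells also express Il1b and Il1r2, 7 were measured, 3 higher and 3 lower in treated samples, and Ly6g and Cxcr2 were not measured. Their summed level was 26556 to 41628 in treated and 25145 to 28962 in untreated samples, a sum that S100a9 dominates. Single markers went both ways, with Camp at 1.27 ± 0.101 and Ltf at -2.08 ± 0.103. Of 7 fibroblast markers 4 were measured and 3 were higher, with a summed level of 534 to 602 in treated and 407 to 438 in untreated samples. Of the T cell markers 3 of 6 were measured (2 higher), of the B cell markers 2 of 5 (1 lower), of the mast cell and basophil markers 2 of 5 (1 higher, 1 lower) and of the endothelial markers 3 of 4 (1 higher). The part of these other cells in the results was not tested.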

How the data were processed

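Total RNA of adiponectin-treated and untreated macrophages was measured on 3 Agilent 2-colour arrays. Per the labels, Cy3 carried the treated RNA on 2 arrays (replicates 1 and 3) and Cy5 on the array of replicate 2, and ratios were turned to treated over untreated accordingly. Because orientations were unequal, dye effects of single genes were reduced but not cancelled. Per the file headers, the arrays were read with Agilent Feature Extraction 10.7.3.1, and the 3 arrays share a slide and a scan. The deposited intensity columns hold median spot and local background brightness without normalization. The scanner software had already subtracted background from, and balanced the dyes of, the deposited processed signals. The log10 ratio in the deposited files is Cy5 over Cy3. The authors' deposited log2 table does not state its making. Against loess ratios of treated over untreated samples, its 3 columns had r = 0.994, 0.990 and 0.992 (across spots), and its medians were -4.14e-04, -0.00494 and -6.42e-04, so it is centred near 0 and runs treated over untreated, while its background handling is unknown.

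Spots were corrected with normexp (offset 50) and loess in limma 3.58.1 (R 4.3.3), control spots at weight 0; between 299 and 323 outlier spots per array were left out and 0 were saturated. Mean intensities of the 2 channels were scaled between arrays with Aquantile, and channel levels were rebuilt from these means and the ratios. A RefSeq table (GRCm38.p6) gave 27235 of 55681 probes a single gene symbol by accession. Genes were represented by their brightest probe well above background in at least 3 of 6 readings. The 3 ratios were tested against 0 with lmFit and eBayes (prior degrees of freedom 6.22, residual 2), adjusted over 13180 genes. The number of arrays limits the precision, and p-values measure the spread between these samples. Start-site sequences are from RefSeq.

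All 9 genes were named, every other measured family gene, and of each further list the 4 called genes with the largest ratios and those not called; for likeness to Il1b, Il1rn and Sigirr, the 4 nearest genes, of which 1 is not reported here. The members and lists were chosen with earlier results of these data known. The 15 alternatives covered background, normalization, centring, the authors' and the scanner's values, probes, filter, dye, array weights, a required change and each replicate left out.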

Additional observations from a re-analysis of the deposited data

How the results depend on the processing

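With median centring in place of loess, which moved the median of all genes tested to -1.03, limma called 0 genes higher and 0 lower of all genes, of the 9 members, and of the signalling, processing and transcription lists; at an unadjusted p under 0.05 it had 216 genes higher and 5098 lower, 3 members higher and 1 lower, 0 and 8 signalling genes, 0 and 6 processing genes, and 0 and 0 transcription genes. Under it the sign turned for Il18 (-0.68), Irak3 (-0.014), Tollip (-0.65), Peli1 (-0.44), Map3k8 (-0.35), Ikbkb (-0.63), Casp1 (-0.71), Naip5 (-0.40), Relb (-0.14), Spi1 (-0.39) and Irf8 (-0.79), while Il1b (3.98), Il1a (2.58), Il1rn (2.08) and Sigirr (-2.39) kept theirs; the cause was not tested. With a required log2 change of 1, a stricter test by construction, limma called 575 genes higher and 872 lower of all genes, 3 members higher and 1 lower, 0 signalling genes higher (1 at an unadjusted p under 0.05) and 1 lower, 1 processing gene higher and 2 lower, and 5 transcription and decay genes higher and 0 lower (0 also unadjusted). With only probes well above background in all 6 readings, Irf4 was not tested and 0 genes of that list were lower (0 also unadjusted). After centring every array on the median of tested genes, 4639 genes were higher and 4835 lower of all genes, against 3230 and 6074 as reported. Without each replicate in turn, 5 members were higher and 2 lower each time, and 2761 to 3148 of all genes were higher and 5368 to 6142 lower. Il1b, Il1a, Il1rn and Sigirr were called in the same direction under each of the 15 alternatives except median centring, where their limma adjusted p was 0.0741 to 0.0768. The test reported is itself paired, on the treated over untreated ratio within each array, so no further paired analysis was added. Signal over background limits the ratios of Il1r1, Il1rap and Il1r2, of Il1a through its untreated spots and of Sigirr through its treated spots.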
